A study of Mus musculus with 24 samples.

Results

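Mgp, Dcn, Fbln1, Pi16, Cytl1 and Aldh1a1 are 6 genes of connective tissue, vessel walls or valves that were read here across 24 arrays of mouse heart RNA. They were picked because most of them were lower below than above the tie after ischaemia and reperfusion (I/R), so that difference is described below and not tested. All 6 of 6 were on the array, among 27670 genes or unnamed features, and all 6 passed the filter on dim probes that left 11419 features. One of them, Cytl1, carries the older name Cyt1 on the array and was matched through a RefSeq synonym.

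The study placed a tie on the left anterior descending (LAD) coronary artery, which feeds the front wall and apex of the left ventricle, and cut each heart into a piece below and a piece above it. There were 4 kinds of heart, all from mice 12 to 16 weeks old. They were MuRF1 Tg+ with I/R, wild type (MuRF1+/+) with I/R, MuRF1 Tg+ with a sham operation and wild type with a sham operation. MuRF1 is a muscle ubiquitin ligase, and Tg+ mice carry it as a transgene; neither the promoter driving it nor the interval from reperfusion to harvest is stated in the sources at hand. The 2 pieces of each kind gave 8 groups of 3 arrays, with RNA pooled from whole pups of postnatal day 1 in the other dye channel of every array. The labels do not state which arrays share a heart, so the number of mice is not known here. A value below is the log2 ratio of heart (Cy5) over this pup pool (Cy3), so 0 means as much as in the pool, and ratios of different genes cannot be ranked against each other.

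The interstitium of the heart is made by fibroblasts, vascular wall cells and valve cells, which secrete collagen, proteoglycans and elastic fibre proteins. The valves, the great vessels and the tissue around them lie at the base of the heart, while the apex is ventricular muscle with its coronary branches and capillaries. Mgp (matrix Gla protein) is a vitamin K-dependent inhibitor of calcification in artery walls and cartilage, Dcn (decorin) coats collagen fibrils and binds TGF-beta, and Fbln1 (fibulin-1) joins basement membranes and elastic fibres. Pi16 is a secreted or membrane-bound protein of the CAP family that marks adventitial fibroblasts in many mouse tissues, Cytl1 is a small secreted protein known from cartilage, and Aldh1a1 oxidises retinaldehyde to retinoic acid.

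The sequences before the transcription starts are shown so that genes picked for one shared difference can be set side by side. RefSeq promoter windows (build GRCm38.p6) were at hand for 4 of the 6 genes, Fbln1, Pi16, Cytl1 and Aldh1a1, with 2 starts each for Fbln1 and Aldh1a1. The 250 bases before the start follow, with capitals for any match to 6 short motifs; the second Fbln1 window overlaps the first and is not printed.
Fbln1, chr15:85205699-85205948, + strand: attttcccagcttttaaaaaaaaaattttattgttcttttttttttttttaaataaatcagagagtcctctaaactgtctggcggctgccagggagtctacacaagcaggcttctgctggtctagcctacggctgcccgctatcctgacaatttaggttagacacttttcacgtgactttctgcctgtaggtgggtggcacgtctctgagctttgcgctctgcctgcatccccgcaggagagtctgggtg
Pi16, chr17:29318632-29318881, + strand: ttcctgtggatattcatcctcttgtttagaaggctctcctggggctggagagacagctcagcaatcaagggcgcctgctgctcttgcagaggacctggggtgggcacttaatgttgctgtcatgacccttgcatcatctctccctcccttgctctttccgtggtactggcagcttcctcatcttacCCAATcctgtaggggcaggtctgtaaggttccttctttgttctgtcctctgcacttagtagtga
Cytl1, chr5:37735269-37735518, + strand: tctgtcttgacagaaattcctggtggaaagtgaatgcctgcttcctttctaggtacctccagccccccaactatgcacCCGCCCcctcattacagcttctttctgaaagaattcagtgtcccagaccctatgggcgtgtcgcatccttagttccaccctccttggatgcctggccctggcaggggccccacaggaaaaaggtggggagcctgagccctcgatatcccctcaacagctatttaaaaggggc
Aldh1a1, upstream start, chr19:20492333-20492582, + strand: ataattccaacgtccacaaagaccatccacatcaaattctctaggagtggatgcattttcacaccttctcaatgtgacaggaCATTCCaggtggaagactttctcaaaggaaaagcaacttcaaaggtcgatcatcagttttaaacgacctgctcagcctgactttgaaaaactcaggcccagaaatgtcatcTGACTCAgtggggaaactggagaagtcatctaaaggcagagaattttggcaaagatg
Aldh1a1, downstream start, chr19:20601718-20601967, + strand: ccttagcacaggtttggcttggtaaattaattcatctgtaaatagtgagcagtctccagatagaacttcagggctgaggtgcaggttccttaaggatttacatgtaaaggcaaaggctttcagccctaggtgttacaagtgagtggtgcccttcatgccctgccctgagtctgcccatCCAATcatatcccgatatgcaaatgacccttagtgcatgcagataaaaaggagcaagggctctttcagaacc
The motifs were searched on both strands. They were the core promoter box TATAAA, the promoter element CCAAT, the GC-rich element GGGCGG, the AP-1 motif TGANTCA, the TEAD motif GGAATG and the nuclear receptor core AGGTCA, which retinoic acid receptors bind. No motif was shared by more than 2 of the 6 windows, and no 2 matches overlapped. CCAAT stood in 2 of 6 windows, Pi16 and the downstream start of Aldh1a1, against 33.8% of all 32851 windows of this length. GGGCGG stood in 2 of 6, Cytl1 and the second Fbln1 window, against 32.7% of all windows. The upstream Aldh1a1 window held TGANTCA and GGAATG, which 6.75% and 12.6% of all windows hold. TATAAA and AGGTCA, found in 12.4% and 14% of all windows, were not in these 6.

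Several arrays were weak. The share of Cy5 spots well above background was 9.90 to 38.3% on I/R arrays and 34.6 to 43.3% on sham arrays. It was under 25% on 5 arrays, all from I/R hearts. From below the tie these were replicates 2 and 3 of Tg+ hearts and replicate 1 of wild type hearts, and from above it replicates 1 and 2 of wild type hearts. Mgp, Dcn and Pi16 were above background on all 24 arrays, Fbln1 on 23, Aldh1a1 on 22 and Cytl1 on 21. Cytl1 was above background on 1 of 3 Tg+ I/R arrays from below the tie, so its low values there are close to the detection limit. For the 6 genes, most differences that rest on the weak arrays are given with and without them. Differences and counts for lists of other genes are given with all 24 arrays only. Their comparisons of I/R with sham thus include the 5 weak arrays on the I/R side, and the part of these arrays was not tested. The labels call the arrays biological replicates, and the pieces of 1 heart share that heart. In such bulk tissue, fewer cells of a type and less RNA per cell cannot be told apart.

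In Tg+ hearts after I/R, all 6 genes were lower below the tie than above it, and no array from below reached any from above for any of them. Mgp showed the widest gap: its log2 ratio was 0.62, 0.60 and 0.91 below the tie, against 2.61, 1.89 and 2.21 above it. Fbln1 read 0.21, 0.21 and 0.34 below, against 1.66, 1.96 and 1.19 above. Dcn read 0.20, 1.15 and 0.54 below, against 1.42, 1.24 and 1.30 above, so one weak array from below came within a small step of the pieces above. The 3 others kept further apart. Pi16 read -0.17, 0.00 and 0.43 below, against 1.13, 0.88 and 1.34 above. Cytl1 read 0.28, 0.02 and 0.07 below, against 1.35, 1.16 and 1.19 above, and Aldh1a1 read 0.08, -0.15 and 0.15 below, against 1.07, 0.53 and 0.80 above. The background for such a separation, every array from below lower than every array from above, was 10.9% of features in Tg+ hearts.

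As differences of group means, below minus above, Mgp stood at -1.53 ± 0.24 log2 in Tg+ I/R hearts (limma standard error, 3 arrays against 3), or 0.347 of the level above. Fbln1 stood at -1.35 ± 0.24, Cytl1 at -1.11 ± 0.19 and Pi16 at -1.03 ± 0.19. Aldh1a1 stood at -0.78 ± 0.15 and Dcn at -0.69 ± 0.34. These are descriptions, since the genes were chosen on this difference; limma called 0.482% of all features in it. For Fbln1, the dimmer of its 2 probes read -1.44 for the same difference, and the second Dcn probe was above background on no array.

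In wild type hearts after I/R the order was the same on the means, with more spread. Mgp was 0.88, -0.12 and 0.06 below the tie, against 1.39, 1.66 and 2.10 above it. Fbln1 was 0.01, -0.16 and -0.22 below, against 0.81, 0.10 and 1.48 above, so one piece above sat barely over the pieces below. Cytl1 was -0.22, 0.26 and 0.27 below, against 0.56, 0.29 and 1.34 above, and Aldh1a1 was -0.09, -0.17 and -0.20 below, against 0.06, 0.24 and 0.79 above. These 4 genes did not overlap between the pieces, where 2.58% of all features were separated in this way. Pi16 and Dcn did overlap: Pi16 was 0.24, -0.23 and 0.22 below, against 0.54, 0.07 and 0.86 above. Dcn was 1.18, -0.63 and -0.58 below, against 0.21, 1.03 and 0.67 above, and its highest value in wild type hearts was thus the weak array of replicate 1 from below the tie.

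The wild type differences, below minus above, were -1.44 ± 0.24 log2 for Mgp, -0.92 ± 0.24 for Fbln1 and -0.65 ± 0.34 for Dcn. Cytl1 stood at -0.63 ± 0.19, Aldh1a1 at -0.52 ± 0.15 and Pi16 at -0.41 ± 0.19; limma called 0.0175% of all features in this difference. Without the weak arrays the wild type differences were larger, at -2.13 for Mgp, -1.67 for Fbln1, -1.28 for Dcn, -1.07 for Cytl1, -0.97 for Aldh1a1 and -0.86 for Pi16, each then from 2 arrays below and 1 above. In Tg+ hearts without the weak arrays, 1 array below and 3 above, they were -1.62 for Mgp, -1.39 for Fbln1, -1.29 for Pi16, -1.12 for Dcn, -0.95 for Cytl1 and -0.72 for Aldh1a1. On 3 of the 4 slides that held I/R arrays of both pieces, the pieces came from different genotypes, so piece and genotype cannot be told apart there. No slide held both pieces of wild type I/R hearts: those from above lay on slides 1 and 7 and those from below on slides 5 and 6. The wild type difference could thus not be read within a slide. Within the 4 slides, below minus above was -2.14 to -0.97 log2 for Mgp, -2.04 to -0.44 for Fbln1 and -1.88 to -0.27 for Dcn. It was -1.33 to -0.75 for Cytl1, -1.23 to -0.37 for Aldh1a1 and -1.13 to -0.04 for Pi16. With slide as a block, the Pi16 difference turned to 0.15 ± 0.29 in wild type hearts, and the Mgp difference there was -0.95 ± 0.36. These 2 values are indirect, since they rest on arrays of other groups on the same slides. Over both genotypes, 6 arrays below against 6 above, Mgp and Cytl1 alone of the 6 genes did not overlap, which held for 0.141% of all features. For Mgp the nearest arrays were 0.91 below and 1.39 above. For Cytl1 they were nearly equal, at 0.28 below (Tg+ replicate 1) and 0.29 above (wild type replicate 2, a weak array). The Cytl1 signal was dim on both, so its separation is no more than a tie.

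**Figure D1:**
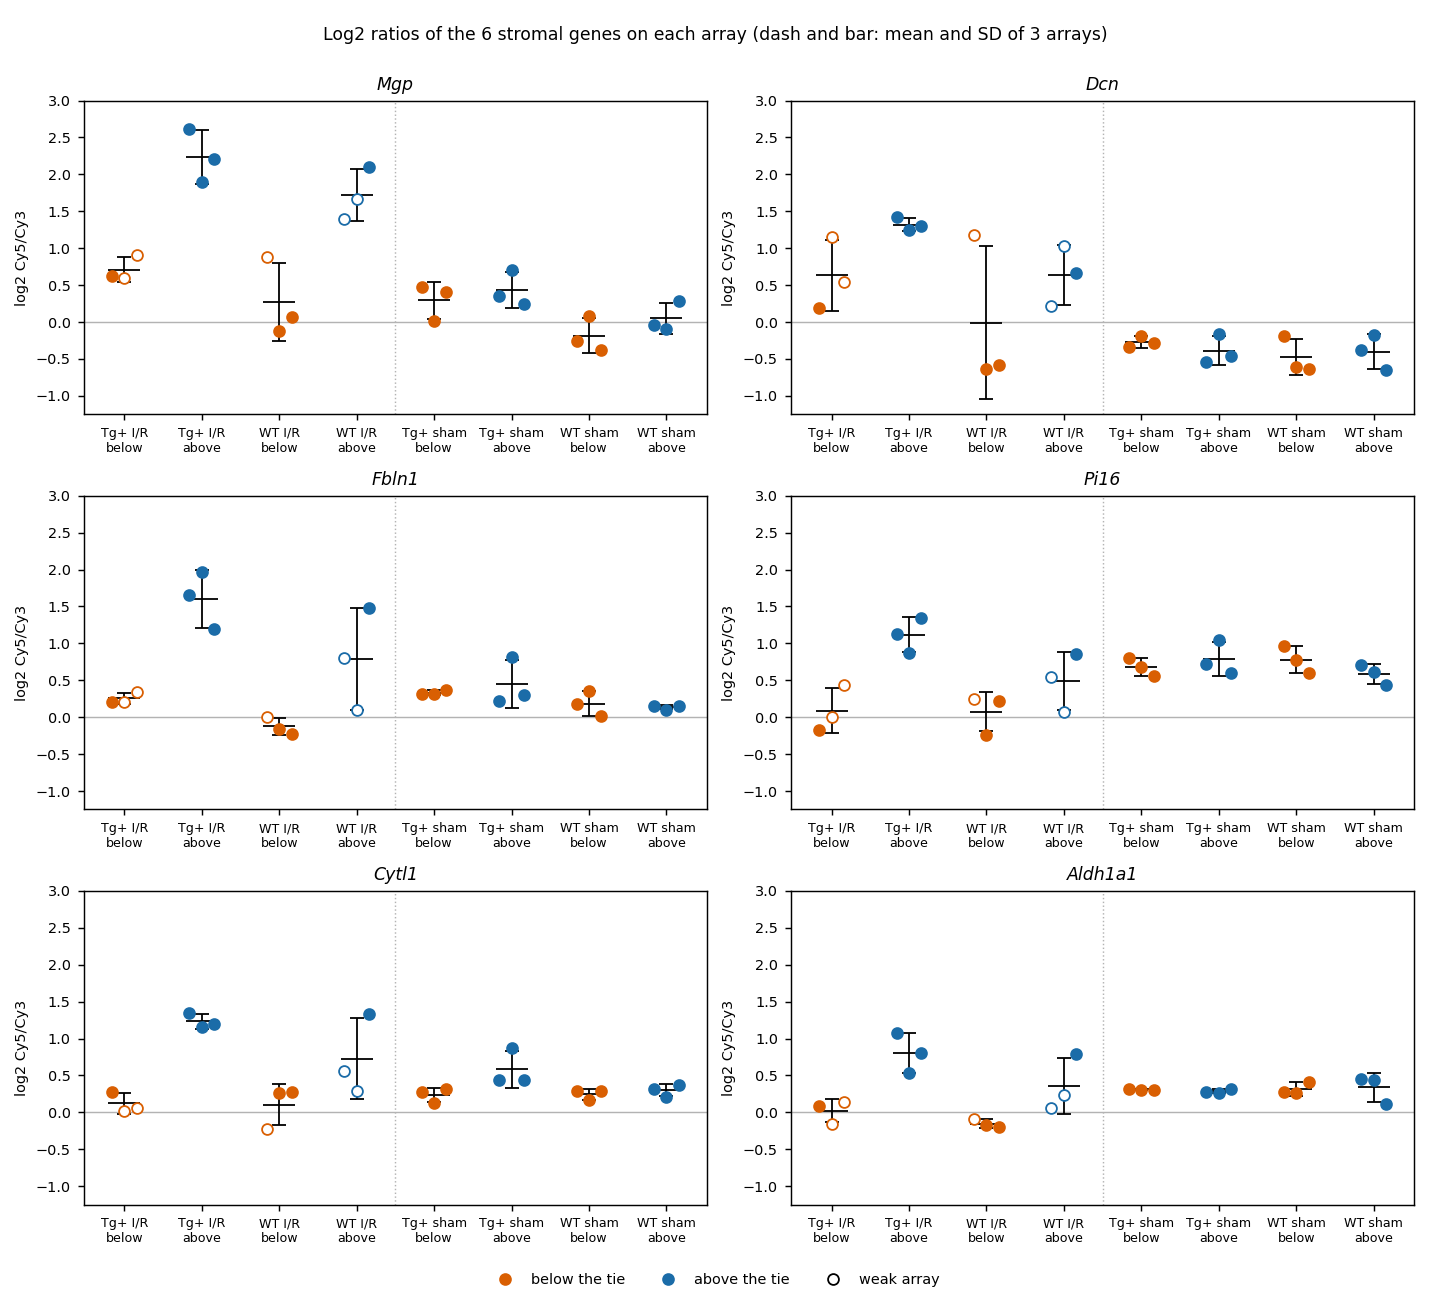
Log2 Cy5/Cy3 ratio (vertical axis) of the 6 genes on each of the 24 arrays, by genotype, surgery and piece (horizontal axis); points are arrays, open points weak arrays, and dash and bar the mean and SD of 3 arrays. In Tg+ I/R hearts the orange points (below the tie) lie under the blue ones (above) for every gene, as for Mgp at 0.60 to 0.91 against 1.89 to 2.61; in wild type I/R hearts Dcn and Pi16 overlap, and in sham hearts the pieces of all 6 genes overlap over both genotypes.

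Sham hearts, cut at the site where a tie would have been, did not enter the choice of the genes. Their pieces from above were not alike in atrial content to those of I/R hearts: the atrial gene Myl7 was -1.13 or lower on 4 of 6 sham arrays from above and 4.62 or higher on 5 of 6 I/R arrays from above. No gene of the 6 passed the test for below minus above in sham hearts, genotypes averaged, and each of the 6 overlapped between the pieces (0.0439% of features were lower on every array from below), and 0% of all 11418 features tested did (0 by limma and by each alternative run, with 58 at an unadjusted p under 0.05). Mgp was -0.37 to 0.47 on the 6 arrays below (median 0.05) and -0.09 to 0.71 on the 6 above (median 0.26), a difference of -0.19 ± 0.17 log2 (adjusted p = 1). Cytl1 was 0.13 to 0.32 below (median 0.28) and 0.21 to 0.87 above (median 0.40), a difference of -0.20 ± 0.13. The 4 others differed by -0.03 to 0.04 log2, with standard errors of 0.11 to 0.24. The highest sham value of Fbln1 (0.82), Cytl1 (0.87), Pi16 (1.05), Mgp (0.71) and Dcn (-0.16) came from 1 array, Tg+ sham above replicate 2. Aldh1a1 stood at 0.26 on that array, inside its sham range of 0.12 to 0.46.

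**Figure D2:**
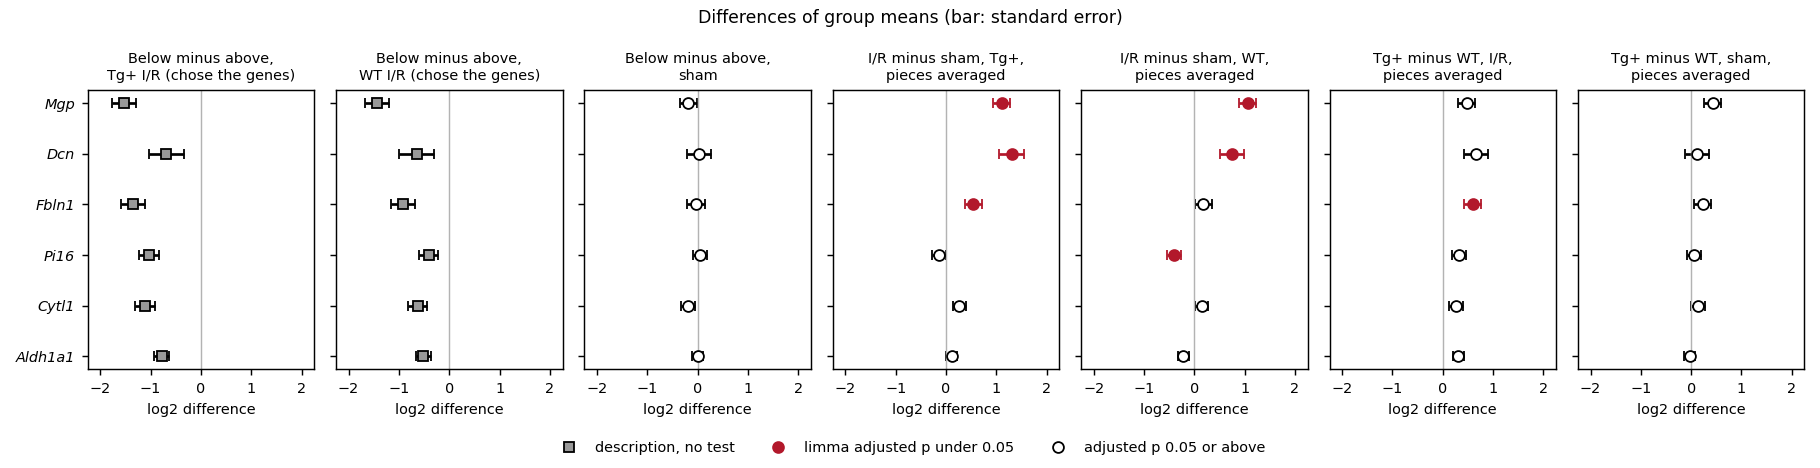
Log2 differences of group means (horizontal axis) with standard errors for the 6 genes (vertical axis) in 7 comparisons, from the fit over all 24 arrays; grey squares are descriptions of the differences that chose the genes, red points passed the test and open points did not. Mgp and Dcn lie to the right of 0 in both comparisons of I/R with sham, and all 6 genes lie near 0 for the sham pieces.

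The comparison of I/R with sham gave the 2 pieces equal weight, so the below minus above difference itself is not part of it. It still uses the I/R arrays on which the genes were chosen. The pieces from above also differed in atrial content between I/R and sham hearts, and the part of that in these values was not tested. Mgp rose in both genotypes. Over all pieces it was 1.23 ± 0.88 after I/R and 0.15 ± 0.32 in sham hearts (SD, n = 12 arrays each, genotypes together), and the rise was 1.11 ± 0.17 log2, or 2.16-fold, in Tg+ hearts (adjusted p = 7.91e-05) and 1.06 ± 0.17, or 2.09-fold, in wild type hearts (adjusted p = 0.000209). Dcn rose by 1.30 ± 0.24 log2, or 2.47-fold, in Tg+ hearts (adjusted p = 0.000426) and by 0.75 ± 0.24, or 1.68-fold, in wild type hearts (adjusted p = 0.0278). In sham hearts Dcn lay between -0.65 and -0.16 on all 12 arrays, under the pup pool; after I/R, 10 of 12 arrays lay above 0.

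The 4 other genes moved less or in the other direction. Fbln1 rose in Tg+ hearts by 0.54 ± 0.17 log2, or 1.45-fold (adjusted p = 0.0151), and its difference in wild type hearts was 0.18 ± 0.17 (adjusted p = 0.45). Pi16 fell in wild type hearts by 0.40 log2 (standard error 0.14, adjusted p = 0.036), and its difference in Tg+ hearts was -0.13 ± 0.14 (adjusted p = 0.432). Cytl1 stood at 0.27 ± 0.13 in Tg+ and 0.14 ± 0.13 in wild type hearts (adjusted p = 0.11 and 0.444). Aldh1a1 stood at 0.11 ± 0.11 in Tg+ and -0.22 ± 0.11 in wild type hearts (adjusted p = 0.382 and 0.124). Thus 3 of 6 genes passed in each genotype, against 46.6% of all features in Tg+ hearts and 27.2% in wild type hearts.

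Of these calls, Mgp and Dcn in Tg+ hearts and Mgp in wild type hearts held under all 12 alternatives run and without any single array. Within slides that held both surgeries, pieces not balanced, Mgp stood at 0.09, 1.20 and 1.65 log2 in Tg+ hearts and 1.55 and 0.43 in wild type hearts, and Dcn at 0.55, 1.57 and 1.70 and at 0.49 and 0.05. Fbln1 stood at -0.31, 0.56 and 1.66 on the same 3 Tg+ slides, and its Tg+ call was lost with slide as a block (adjusted p = 0.0749). The wild type Dcn call was lost under 5 of the 12 alternatives, among them slide as a block (adjusted p = 0.187) and Cy5 alone. It was also lost without any one of sham above 3, sham below 2, sham below 3 and I/R above 2 (adjusted p = 0.0597 to 0.0781). With Cy5 alone the wild type Dcn difference was 0.08 log2, and without the 5 weak arrays it was 0.47 (adjusted p = 0.00761). Within slides Pi16 stood at -0.30 and -0.37 in wild type hearts. The wild type Pi16 call was lost without any one of 7 arrays (sham above 1 and 2, sham below 1 and 2, I/R above 1 and 2, and I/R below 2; adjusted p up to 0.114) and under 8 of the 12 alternatives, among them slide as a block (adjusted p = 0.198) and without the weak arrays (-0.26, adjusted p = 0.177). Without the weak arrays Cytl1 passed in both genotypes, at 0.34 log2 in Tg+ (adjusted p = 0.00475) and 0.53 in wild type hearts (adjusted p = 0.000514), and Fbln1 passed in wild type hearts at 0.48 (adjusted p = 0.024). Without wild type I/R above replicate 3, Aldh1a1 passed in wild type hearts at -0.33 (adjusted p = 0.00932).

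Piece by piece, I/R minus sham showed Mgp and Dcn higher in every piece and Pi16 lower below the tie, on the group means. These values carry the difference that chose the genes and are given without a test. Above the tie Mgp stood at 1.80 ± 0.24 log2 in Tg+ and 1.67 ± 0.24 in wild type hearts, and below it at 0.42 ± 0.24 and 0.46 ± 0.24. Dcn stood at 1.71 ± 0.34 and 1.04 ± 0.34 above, and at 0.90 ± 0.34 and 0.46 ± 0.34 below, so both genes had positive means in all 4 pieces. Without the weak arrays Mgp and Dcn stood at 2.05 and 1.07 above the tie in wild type hearts (1 I/R array left), at 0.15 and -0.13 below it in wild type hearts (2 left), and at 0.32 and 0.46 below it in Tg+ hearts (1 left), so the Dcn sign turned in one piece. Fbln1 stood at 1.16 ± 0.24 in Tg+ and 0.66 ± 0.24 in wild type hearts above the tie, and at -0.08 ± 0.24 and -0.31 ± 0.24 below it. Fbln1 without the weak arrays stood at 1.34 above the tie in wild type hearts, and at -0.12 in Tg+ and -0.37 in wild type hearts below it.

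Pi16 and Aldh1a1 were lower than in sham hearts below the tie. Pi16 stood at -0.59 ± 0.19 in Tg+ and -0.70 ± 0.19 in wild type hearts below the tie, and at 0.33 ± 0.19 and -0.10 ± 0.19 above it. Aldh1a1 stood at -0.29 ± 0.15 in Tg+ and -0.47 ± 0.15 in wild type hearts below, and at 0.52 ± 0.15 and 0.02 ± 0.15 above. Pi16 without the weak arrays stood at -0.85 in Tg+ and -0.79 in wild type hearts below the tie, and its value above the tie in wild type hearts turned to 0.27. Aldh1a1 then stood at -0.23 in Tg+ and -0.50 in wild type hearts below, and at 0.45 above in wild type hearts. With all arrays, every Pi16 and Aldh1a1 array from below the tie was lower than every sham array of its piece and genotype, and so was Fbln1 in wild type hearts. That makes 2 of 6 genes in Tg+ hearts, against 26.3% of all features, and 3 of 6 in wild type hearts, against 13.5%. Below the tie Mgp and Dcn were higher on every Tg+ I/R array than on every Tg+ sham array, as were 27.3% of features, and none of the 6 genes was in wild type hearts (9.37% of features). Above the tie, 5 genes (all but Pi16) were higher on every Tg+ I/R array than on every Tg+ sham array, against 25% of all features. In wild type hearts 2 genes were, Mgp and Dcn, against 16.6%. The genes were chosen on the same I/R arrays, so these counts are descriptions and were not tested. Cytl1 stood at 0.65 ± 0.19 in Tg+ and 0.43 ± 0.19 in wild type hearts above the tie, and at -0.12 ± 0.19 and -0.15 ± 0.19 below it. Cytl1 without the weak arrays stood at 1.04 above the tie in wild type hearts, and at 0.04 in Tg+ and 0.02 in wild type hearts below it.

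The order of the 8 groups showed the Tg+ I/R pieces above the tie at the top for each of the 6 genes, and the wild type I/R pieces above the tie next for all but Pi16. The genes were chosen on the I/R pieces, so this order is a description. Second place was close to a tie for Dcn (0.64, against 0.63 in Tg+ I/R pieces below). It was also close for Aldh1a1 (0.36, against 0.34 in wild type sham pieces above). For Mgp these 2 groups overlapped, at 2.24 ± 0.36 and 1.72 ± 0.35 (SD, n = 3 each), and both stood clear of the Tg+ I/R pieces below the tie at 0.71 ± 0.17; the groups further down overlapped with their neighbours. For Dcn the Tg+ I/R pieces above the tie (1.32 ± 0.09) stood clear of the wild type ones (0.64 ± 0.41), and all groups further down overlapped with their neighbours. The bottom place was held by wild type I/R pieces below the tie for Fbln1 (-0.13 ± 0.12), Pi16 (0.08 ± 0.27), Cytl1 (0.10 ± 0.28) and Aldh1a1 (-0.15 ± 0.06). For Mgp and Dcn it was held by wild type sham pieces from below the tie, at -0.18 ± 0.24 and -0.47 ± 0.25.

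Transgene and wild type were compared with pieces averaged. After I/R, Fbln1 was higher in Tg+ than in wild type hearts by 0.59 ± 0.17 log2, or 1.51-fold (adjusted p = 0.0485), 1 of 6 genes where 4.87% of all features passed. The call was lost without any one of 8 of the 12 I/R arrays (Tg+ above 1 and 2, Tg+ below 2 and 3, wild type above 1 and 2, and wild type below 2 and 3; adjusted p up to 0.136). On each slide holding both genotypes after I/R, all Tg+ arrays came from one piece and all wild type arrays from the other. Fbln1 stood at 2.04, 1.41 and -0.44 log2 there. Tg+ was from above and wild type from below for the positive values, and the reverse held for the negative one. Genotype and piece therefore cannot be told apart in these values. With slide as a block the call was lost (adjusted p = 0.113). Without the weak arrays the difference was 0.27 log2 (adjusted p = 0.315). Dcn, Mgp, Pi16, Aldh1a1 and Cytl1 stood at 0.66 ± 0.24, 0.48 ± 0.17, 0.32 ± 0.14, 0.31 ± 0.11 and 0.26 ± 0.13 log2 and did not pass (adjusted p = 0.103 to 0.299). One array, replicate 1 of the wild type I/R pieces from below, set 2 of these: without it Dcn stood at 0.96 log2 (adjusted p = 0.00209) and Mgp at 0.63 (adjusted p = 0.00949). Without the weak arrays Dcn stood at 0.73 (adjusted p = 0.00732). Without wild type I/R above replicate 3, Cytl1 (0.41, adjusted p = 0.0164) and Aldh1a1 (0.42, adjusted p = 0.00751) passed, and Aldh1a1 also passed with that first array left out (adjusted p = 0.0494). No Tg+ array overlapped with a wild type array for Dcn and Pi16 above the tie, where 7.09% of features were higher on every Tg+ array, nor for Fbln1 below it (5.19% of features). For Pi16 the nearest arrays were 0.88 in Tg+ and 0.86 in wild type hearts. Above the tie, wild type replicates 1 and 2 were weak and no Tg+ array was. Over both pieces each of the 6 genes overlapped (0.369% of features did not). In sham hearts no gene passed (0.0525% of all features did), with Mgp at 0.43 ± 0.17 log2 and the others at -0.03 to 0.23 (adjusted p = 1). The effect of I/R did not pass a test of its difference between Tg+ and wild type for any of the 6 genes (0.035% of all features did); the estimates ran from 0.05 ± 0.24 for Mgp to 0.55 ± 0.34 for Dcn, with adjusted p of 0.299 to 0.95. Without the wild type I/R array from below, replicate 1, the Dcn estimate was 0.85 (adjusted p = 0.0418), and without the 5 weak arrays it was 0.62 (adjusted p = 0.0464).

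Atrial muscle markers were also lower below than above the tie after I/R, on the median of the list. Of 12 atrial muscle markers, 9 were tested, and Nr2f1 and Bmp10 were among those that did not pass the filter on dim probes. Their mean log2 ratio over the 9 ran from -0.55 to 0.00 on Tg+ I/R arrays below the tie and from 1.27 to 1.54 above it. In wild type I/R hearts it ran from -0.99 to -0.24 below and from -0.30 to 2.54 above, and in sham hearts from -1.07 to -0.93 below and from -1.10 to 0.98 above. The median marker stood at -0.74 log2 below minus above in Tg+ and -1.06 in wild type I/R hearts, where the median of all features was 0.00 and -0.01. The markers were not all alike. Nppa, one of the 9, overlapped between the Tg+ I/R pieces, at 3.6 to 4.5 below the tie and 4.0 to 4.7 above it. The part of the atrial markers in the pattern of the 6 genes was not tested.

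Myl7, the atrial myosin regulatory light chain, is given here array by array. It was -1.45, -0.54 and -0.72 below the tie in Tg+ I/R hearts, against 4.62, 5.27 and 5.34 above it. In wild type I/R hearts it was -0.41, -1.72 and -2.20 below, against 4.90, 0.26 and 6.23 above. Sham arrays lay between -2.35 and -1.13 apart from 2 from above, Tg+ replicate 2 at 4.28 and wild type replicate 3 at 2.67. The first of these is the sham array on which 5 of the 6 genes were highest, and on the second Fbln1 was 0.15, Pi16 0.44, Aldh1a1 0.12 and Cytl1 0.37, within or at the lower end of the sham range.

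One wild type I/R array from above the tie, the weak replicate 2, had little Myl7 (0.26) and Sln, the atrial calcium pump regulator sarcolipin, at -2.33 against 0.16 and 2.77 on the other two. On it Mgp (1.66) lay between its fellow arrays and Dcn (1.03) was the highest of the 3, while Fbln1 (0.10), Pi16 (0.07) and Cytl1 (0.29) were the lowest of the 3. Aldh1a1 was 0.24 there, between its fellows at 0.06 and 0.79. On the wild type sham array with Myl7 at 2.67, Mgp was 0.28 and Dcn -0.65, so Dcn stood at the bottom of its sham range. With pieces averaged, Sln was higher after I/R by 2.53 ± 0.80 log2 in Tg+ (adjusted p = 0.0156) and 2.42 ± 0.80 in wild type hearts (adjusted p = 0.0307). Below the tie, I/R arrays that were not weak read -4.80 and -4.04 in wild type and -4.11 in Tg+ hearts. Sham arrays from below read -4.67 to -3.67 and -4.68 to -4.41. The weak I/R arrays from below read -1.64 in wild type and -1.98 and -2.53 in Tg+ hearts. Of the 9 tested atrial markers, 6 rose in Tg+ hearts, where 22.9% of all features did, and 2 in wild type hearts, where 12.1% did. The part of atrial tissue in the pieces and of weak arrays in these rises was not tested.

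**Figure D3:**
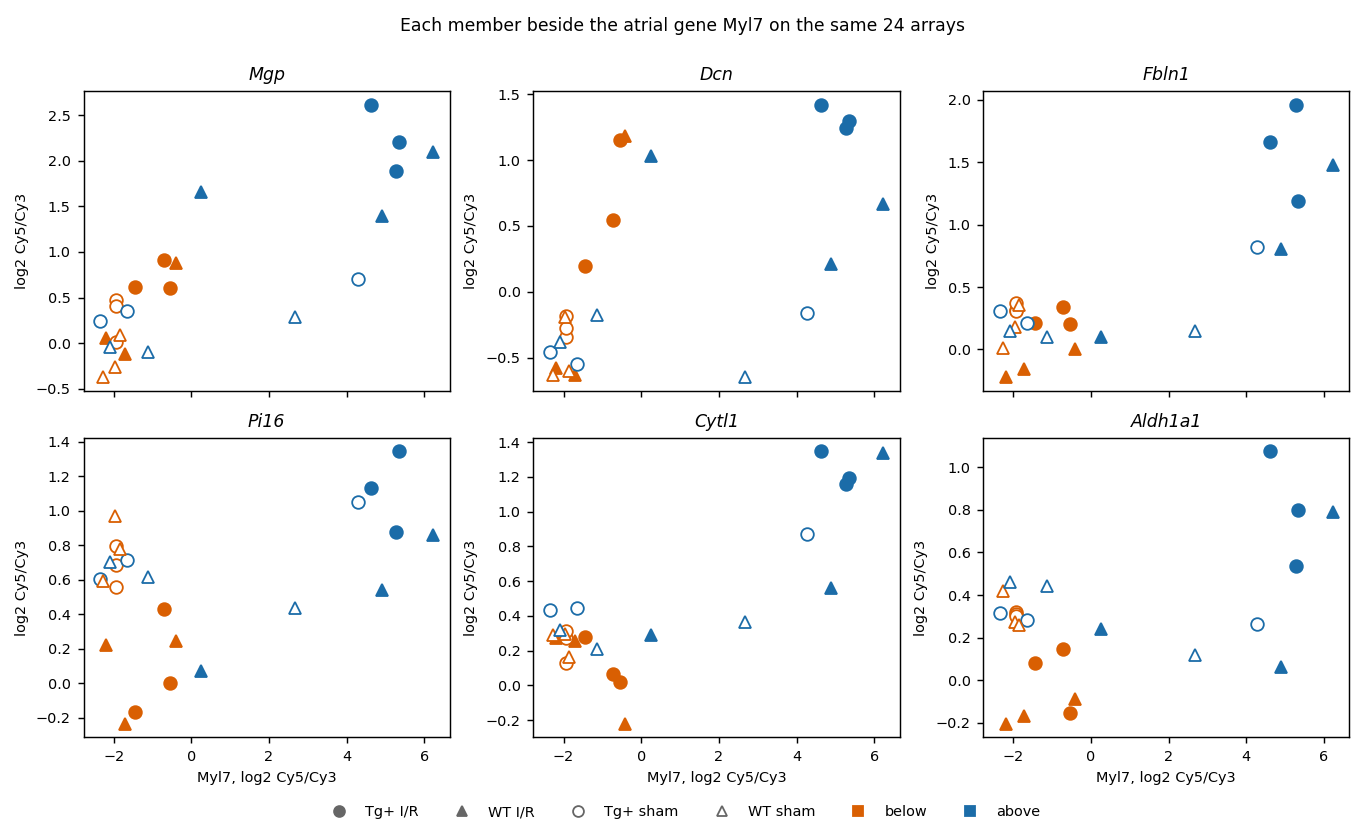
Log2 ratio of each of the 6 genes (vertical axes, each with its own range) beside the log2 ratio of the atrial gene Myl7 (horizontal axis) on the same 24 arrays; circles are Tg+, triangles wild type, filled I/R, open sham, orange below and blue above the tie. Arrays fall into one set with Myl7 at 0.26 or lower and one at 2.67 or higher. Mgp and Dcn are raised on some I/R arrays of the first set too, such as Mgp at 1.66 with Myl7 at 0.26, a weak array. Weak arrays are not marked. On the I/R arrays of the first set that are not weak, Mgp was -0.12, 0.06 and 0.62 and Dcn -0.63, -0.58 and 0.20.

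Of 16 fibroblast markers, Dcn among them, all 16 were tested. For below minus above after I/R their median stood at 0.13 log2 in Tg+ and -0.26 in wild type hearts, beside 0.00 and -0.01 over all features. Leaving Dcn aside, since it was chosen on this difference, none of the markers passed. Over all features, 0.482% did in Tg+ and 0.0175% in wild type hearts. For I/R minus sham, where 46.6% of all features passed in Tg+ and 27.2% in wild type hearts in either direction, 11 of 16 rose in Tg+ hearts (list median 0.60 log2), among them the collagen genes Col1a1 (1.43 ± 0.49, adjusted p = 0.0246) and Col3a1 (1.11 ± 0.32, adjusted p = 0.00971), Vim, an intermediate filament gene (1.24 ± 0.23, adjusted p = 0.000462), and Dcn. In wild type hearts 1 of 16 rose, Dcn itself, with a list median of 0.29 log2. The mean of the 16 was -1.67 to -0.51 on Tg+ I/R arrays below the tie and -1.21 to -1.12 above it. It was -2.06 to -0.71 on wild type I/R arrays below the tie and -1.47 to -1.13 above it, and ran from -1.95 to -1.54 on sham arrays.

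Relatives of the 6 genes were read from lists chosen with earlier results known, and their counts for I/R minus sham stand against 46.6% of all features in Tg+ (22.9% higher, 23.7% lower) and 27.2% in wild type hearts (12.1% higher, 15.1% lower). Among 15 small leucine-rich proteoglycans, the family of Dcn, 8 were tested. Beside Dcn, Fmod (fibromodulin) rose by 0.72 ± 0.19 log2 in Tg+ and 0.55 ± 0.19 in wild type I/R hearts (adjusted p = 0.00533 and 0.0386). Ogn (osteoglycin) fell by 0.71 log2 in Tg+ and by 0.60 in wild type hearts (standard error 0.09 each, adjusted p = 1.71e-05 and 0.000145). The 5 others did not pass. For below minus above after I/R, the median of the 8 stood at -0.21 log2 in Tg+ and -0.25 in wild type hearts. Leaving Dcn aside, none passed. For lists below that hold another of the 6 genes, calls in this difference are not given, since that gene was chosen on it.

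Of 20 fibulins and elastic fibre genes, 18 were tested: 9 rose and 2 fell with I/R in Tg+ hearts, and 3 rose and 3 fell in wild type hearts. Fbln2, another fibulin, rose by 1.20 ± 0.33 log2 in Tg+ (adjusted p = 0.00755), and Efemp2 (fibulin-4), needed for elastic fibre assembly, rose by 0.93 ± 0.16 in Tg+ (adjusted p = 0.000217) and 0.64 ± 0.16 in wild type hearts (adjusted p = 0.00662). Emilin2, an elastin-associated protein gene, fell by 0.48 in both genotypes (standard error 0.07, adjusted p = 7.52e-05 in Tg+ and 0.000129 in wild type). Over the list, the median for below minus above after I/R was 0.16 log2 in Tg+ and -0.14 in wild type hearts, beside -1.35 and -0.92 for Fbln1 itself.

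Of 18 genes of retinoic acid synthesis and response, 11 were tested, and 5 rose and 1 fell in Tg+ I/R hearts while 3 rose in wild type I/R hearts. Aldh1a2, the sister enzyme of Aldh1a1 known from the epicardium, rose by 0.76 ± 0.11 log2 in Tg+ (adjusted p = 4.3e-05) and 0.58 ± 0.11 in wild type hearts (adjusted p = 0.000763), where Aldh1a1 itself did not pass. Aldh1a3 rose by 0.65 ± 0.15 in Tg+ and 0.49 ± 0.15 in wild type hearts (adjusted p = 0.00197 and 0.0202). Rbp4, which carries retinol in blood, rose by 1.61 ± 0.53 in Tg+ hearts (adjusted p = 0.0202). The list median for below minus above after I/R was 0.17 log2 in Tg+ and -0.14 in wild type hearts.

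Of 15 partners of Mgp in vitamin K use and mineralization, 11 were tested. Spp1 (osteopontin) rose by 1.53 ± 0.42 log2 in Tg+ and 1.22 ± 0.42 in wild type hearts (adjusted p = 0.00739 and 0.0386). Ank, through which cells release pyrophosphate, a blocker of mineral growth, fell by 1.25 in Tg+ and by 0.60 in wild type hearts (standard error 0.18 each, adjusted p = 4.11e-05 and 0.0181). With Mgp, 6 of 11 rose and 1 fell in Tg+, and 2 rose and 2 fell in wild type hearts. For below minus above after I/R, the list median was 0.13 log2 in Tg+ and -0.09 in wild type hearts.

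Of 15 adventitial fibroblast markers, Pi16 among them, 12 were tested. In Tg+ I/R hearts 4 rose, led by Ly6c1 (0.78 ± 0.18, adjusted p = 0.00193) and Anxa3 (0.68 ± 0.15, adjusted p = 0.00149), and Pi16 was not one of them. In wild type I/R hearts Pi16 was the one that passed, and it fell. Of 10 CAP family genes and relatives, Pi16 included, 3 were tested: Glipr2 rose in Tg+ (0.67 ± 0.10, adjusted p = 8.81e-05) and wild type hearts (0.39 ± 0.10, adjusted p = 0.00935), and Crispld2 fell by 0.38 in Tg+ and by 0.45 in wild type hearts (standard error 0.12 each, adjusted p = 0.0196 and 0.0123). For below minus above after I/R, the medians in Tg+ and wild type hearts were -0.06 and -0.21 log2 for the adventitial markers and -0.71 and -0.12 for the 3 CAP genes, Pi16 included.

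Markers of other cells were read beside them. For below minus above after I/R, the list medians in Tg+ and wild type hearts were 0.21 and -0.65 log2 for epicardial and mesothelial genes (5 of 11 tested), 0.04 and -0.14 for valve and cartilage-like genes (6 of 10), -0.18 and -0.06 for smooth muscle (8 of 8), and -0.34 and 0.07 for ventricular muscle (11 of 12). Endothelial genes (10 of 10 tested) stood at -0.09 and 0.08, and adipocyte genes (6 of 9) at 0.70 and -0.01. None of these markers passed in that difference. For I/R minus sham, all 5 tested epicardial genes rose in both genotypes, with list medians of 0.91 log2 in Tg+ and 0.78 in wild type hearts. Beside the same shares of all features (22.9% higher in Tg+, 12.1% in wild type), of neutrophil genes 5 of 5 tested rose in Tg+ and 4 of 5 in wild type hearts, of macrophage genes 7 of 11 and 4 of 11, of valve and cartilage-like genes 4 of 6 and 2 of 6, and of adipocyte genes 4 of 6 and 2 of 6. Ventricular muscle genes stood at a mean log2 ratio of 2.91 to 4.01 over all arrays. Of these, 6 of 11 fell in Tg+ and 2 of 11 in wild type I/R hearts, where 23.7% and 15.1% of all features fell. Of 10 endothelial genes, 1 rose and 2 fell in Tg+ hearts, and 0 rose and 5 fell in wild type hearts. Of 8 smooth muscle genes, 3 rose and 2 fell in Tg+ hearts, and 2 rose and 2 fell in wild type hearts. The part of these cell types in the rises of Mgp and Dcn was not tested.

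The 6 genes varied together to different degrees. Over the 15 pairs, Pearson's r ran from 0.34 to 0.93 (median 0.85) on the 12 I/R arrays and from -0.47 to 0.77 (median 0.26) on the 12 sham arrays. Fbln1 and Cytl1 were close in both sets, with r = 0.90 after I/R and 0.69 in sham hearts. Mgp and Aldh1a1 reached 0.93 after I/R and -0.47 in sham hearts. These are descriptions, and the 2 sets cannot be compared as a result, since the genes were picked for a difference shared on the I/R arrays. Arrays of one piece also share whatever sets that piece apart, including the atrial markers.

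Among the 10 features most like the mean of the 6 genes over the 24 arrays, each gene centred and scaled first, were Hamp (r = 0.90), Angptl7 (0.90), Ccdc80 (0.89), C1ra (0.89), Lmod1 (0.89), Tgfb3 (0.88), Lgi4 (0.88), Entpd2 (0.87) and Serping1 (0.86). Hamp encodes the iron hormone hepcidin, C1ra and Serping1 encode a complement protease and its inhibitor, Lmod1 is a smooth muscle actin nucleator and Tgfb3 a TGF-beta ligand. Hamp read -0.22, -0.04 and -0.02 below the tie in Tg+ I/R hearts, against 0.76, 0.59 and 1.00 above it, with no overlap. In wild type I/R hearts Hamp read 0.18, -0.30 and -0.28 below, against 0.18, -0.03 and 0.94 above, and the pieces overlapped. These features were chosen for likeness on the same arrays, so none of their differences is tested. By single gene, the features most like Mgp included Comp (0.91), and those most like Fbln1 included Lmod1 (0.90). Dcn was most like Kdelr2 (0.94) and Pdlim3 (0.93), Cytl1 was most like Fbln1 (0.89) and Lmod1 (0.86), Aldh1a1 like Slc43a3 (0.87) and Ccn5 (0.83), and Pi16 like C1qtnf7 (0.81) and a probe with no gene name here (0.80).

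**Figure D4:**
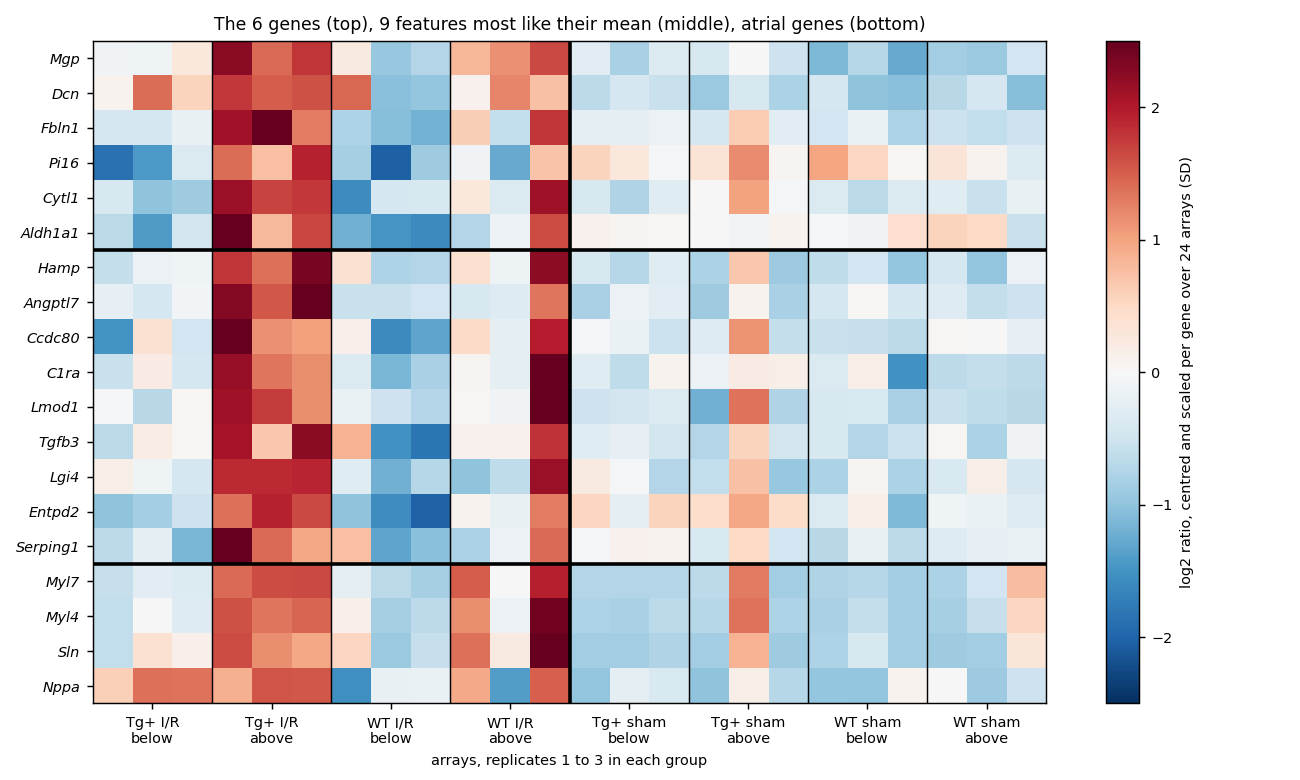
Log2 ratios of the 6 genes (top), 9 of the 10 features most like their mean (middle) and 4 atrial genes (bottom), each centred and scaled over the 24 arrays, with genes down the page and arrays across it by group; red is above and blue below the gene's own mean, in SD. The 3 Tg+ I/R arrays from above the tie and wild type I/R above replicate 3 are red through nearly all genes, and Tg+ sham above replicate 2 is the reddest sham array.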

How the data were processed

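RNA from 24 mouse heart pieces (50 ng each) was hybridised on 2-colour Agilent arrays against newborn pup RNA. Per the labels, heart was Cy5 and the pool Cy3, dyes were never swapped, and one protocol passage gives the heart Cy3-CTP instead; ratios are Cy5 over Cy3, and dye bias cancels only in differences of 1 probe between arrays. Per the file headers, Feature Extraction 9.5.3.1 gave the deposited spot intensity values, not normalized, and the deposited log10 ratio. The deposited series table holds log2 ratio values, which tracked Agilent's ratios (r at least 0.986, Cy5 over Cy3); how it was centred is not stated there.

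Intensities were corrected with normexp (offset 50, which shrinks ratios of dim spots) and loess within arrays in limma 3.58.1 (R 4.3.3). Control and outlier-flagged spots had weight 0, flagged spots were left out, and none was saturated. A probe was kept if any group had Cy5 well above background on its 3 arrays (15412 of 41174), 1 per gene (the highest mean Cy5 signal). One of the 11419 features, with no value in a whole group, was dropped. Symbols came from RefSeq GRCm38.p6 for 22951 probes by accession and 3109 by older symbol. limma (lmFit, eBayes) fitted 8 group means with 16 residual degrees of freedom, and p-values were adjusted by Benjamini-Hochberg over all features at 0.05. The number of arrays limits precision, and p-values measure the spread between these arrays. The fit was tested on simulated data.

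The genes, lists and tests were chosen with earlier results of these data known. Named genes are the 6 genes, the 10 features most correlated with their mean, the 2 most like each, and up to 4 passing genes per list and comparison by size of change; a few genes that this rule or the marker lists name are not reported here. Alternatives were other background corrections, Agilent's ratios, Cy5 alone, other filters, all probes of a gene averaged, slide and heart blocks, the compared arrays alone, array weights, and leaving out arrays. Arrays lay on 7 slides, scanned on 1 day. Deviations from the group means had correlations of mixed sign, -0.74 to 0.54, between pieces with the same replicate number. The labels do not state that a shared number means 1 heart.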

Additional observations from a re-analysis of the deposited data

Results flagged for a closer look

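In Tg+ hearts the I/R minus sham difference had opposite signs in the pieces for Pi16 and Aldh1a1: every array from below the tie was lower than the sham mean of its piece and every array from above was higher. For Pi16 it was -0.59 below and 0.33 log2 above, a gap of -0.92. For Aldh1a1 it was -0.29 below and 0.52 above, a gap of -0.80. Neither gap was tested, since the I/R pieces chose the genes.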

How the results depend on the processing

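No difference of a called value turned its sign under the 12 alternatives or without any 1 of the 24 arrays. The cause of the shifts below was not tested, save that stricter filters and the compared arrays alone leave fewer features or samples. Over all features, I/R minus sham called 3111 in wild type hearts, but 1270 with Cy5 above background on all arrays, 1050 with slide as a block, 1809 with the compared arrays alone and 5199 with array weights; in Tg+ hearts it called 5318, but 1832 with that filter and 2653 with slide. Of the 6 genes, 1 and not 3 passed in wild type hearts with Cy5 alone, no filter, slide, or the compared arrays alone. Tg+ minus wild type in sham hearts called 6 features, but 0 with the strict filter, 2 with slide, 85 with the compared arrays alone, 1057 with array weights (1 of the 6 genes) and 25 without the weak arrays. After I/R it called 556, but 1327 with Agilent's ratio, 1311 with Cy5 alone, 1328 with the series table (2 of the 6 genes in each), 359 with no filter, 907 with slide, 0 with the compared arrays alone, 5734 with array weights (5 of the 6 genes) and 941 without the weak arrays; 0 of the 6 genes passed with no filter, the strict filter, slide or the compared arrays alone. The difference of the I/R effect between genotypes called 4, but 55 with no background correction, 1 with Agilent's ratio or the series table, 75 with Cy5 alone, 154 with the strict filter, 92 with slide, 5431 with array weights (4 of the 6 genes) and 424 without the weak arrays (1 of the 6 genes). Leaving out 1 array at a time gave 2290 to 3800 calls (1 to 4 of the 6 genes) for I/R in wild type, 4303 to 5955 (3 to 3) for I/R in Tg+, 5 to 7 (0 to 0) for genotype in sham, 192 to 2255 (0 to 4) for genotype after I/R and 3 to 523 (0 to 1) for the difference of the I/R effect, and 0 to 0 for the sham pieces. With Agilent's ratio, Cytl1 below minus above after I/R was -2.94 in Tg+ and -1.84 in wild type hearts. Dim signal limits Cytl1, Aldh1a1 and Fbln1 most.

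The replicate block, pairing the pieces by their number as 1 heart (consensus correlation 0.076), called 2863 for I/R in wild type, 5012 for I/R in Tg+, 6 and 426 for genotype in sham hearts and after I/R, 4 for the difference of the I/R effect and 0 for the sham pieces. Among the 6 genes it changed 1 call, Fbln1 in Tg+ against wild type after I/R (0.59, adjusted p = 0.0661, 0 of the 6 genes then passing). The labels do not say which pieces share a heart, and 8 of 12 correlations between same-numbered pieces were over 0.1, so whether the numbers pair them is not settled.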
